A study of Saccharomyces cerevisiae with 8 samples.

Results

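The *ptc6* mutant was set against the wild type (wt) on 4 of the 8 arrays of the series, chosen by their labels alone, and all ORFs (open reading frames) on these arrays are described here. Both strains had the BY4741 background, a haploid MATa laboratory strain of *Saccharomyces cerevisiae* that lacks *HIS3*, *LEU2*, *MET15* and *URA3*. The mutant carried *ptc6::kanMX4*, in which the kanMX4 marker replaces the *PTC6* gene, and the wt had *PTC6* intact, so the mutant side rests on 1 deletion strain. Cells of both strains were untreated and came from exponential cultures in YPD, a rich glucose medium, at 28 °C. Each array compared cDNA of the mutant with cDNA of the wt, 1 in the dye Cy3 and the other in Cy5. Experiments 1 and 2 are a dye swap of biological replicate 1, and experiments 5 and 6 are a dye swap of biological replicate 2. The mutant was in Cy3 in experiments 1 and 5 and in Cy5 in experiments 2 and 6. The other 4 arrays compared *ptc1 ptc6* cells, which lack a further phosphatase gene, with wt cells of the same background and medium.

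Ptc6 belongs to the protein phosphatases of type 2C, enzymes that need magnesium or manganese and remove phosphate from serine and threonine residues. It is found in mitochondria, where it has been tied to the state of the pyruvate dehydrogenase complex and to mitophagy, the breakdown of mitochondria in the vacuole. Yeast cells growing fast on glucose devote most of their transcription to ribosomes and glycolysis, while the stress genes under Msn2 and Msn4 and the respiratory genes are held low. Genes of ribosomal proteins and stress genes often move in opposite directions when growth or nutrient signalling changes.

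All values are log2 ratios of mutant over wt, so that 1 is a doubling and -1 is a fall to 50% relative to wt, and they hold no level of expression. The 4 arrays gave values for 4883, 4308, 5537 and 5347 of 6212 ORFs in experiments 1, 2, 5 and 6. Their medians were -0.012, 0.011, 0.02 and 0.034, and their SDs across ORFs were 0.33, 0.32, 0.24 and 0.26. Replicate 1 thus had fewer ORFs and a wider spread than replicate 2. Values on 4 of 4 arrays were available for 4148 ORFs, and 4824 had a value in both replicates on at least 2 arrays. A further 738 ORFs were measured in replicate 2 only and 109 in replicate 1 only. Of the a-cell genes *MFA2*, *STE2*, *STE6* and *BAR1* had values, and a ratio of 2 strains cannot show the level of such markers.

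The genotype was first checked at the deleted gene. *PTC6* (YCR079W) had -2.27 in experiment 1, -2.66 in experiment 5 and -2.18 in experiment 6, and experiment 2 had no value. All 3 values were far below 0, and the mean over the replicates, the lowest of the ORFs with at least 2 arrays, was -2.34 ± 0.11 (SD, n = 2), which is 5.07-fold lower than in wt. *HIS3* and *URA3* are lacking in both strains, so their spots carry no difference of genotype. *HIS3* had 0.14, 0.12, 0.08 and 0.37 in experiments 1, 2, 5 and 6. *URA3* had 0.58, 0.05, -0.39 and 0.63, a range that crosses 0 within replicate 2. *LEU2* and *MET17* (another name of *MET15*) had no value on any of the 4 arrays.

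Under the 2-fold rule of the study's methods, which asks for a mean log2 ratio of at least 1 or at most -1 over at least 2 arrays, 0 of 5461 ORFs (0%) were higher and 3 (0.0549%) were lower in *ptc6*. The 3 were *PTC6*, *FIT3*, which encodes a cell wall mannoprotein that holds iron-loaded siderophores, and *TIS11*, an mRNA-binding protein that degrades transcripts of iron-using proteins in iron shortage. *FIT3* (YOR383C) had -1.29, -0.93, -1.63 and -1.30 on the 4 arrays. *TIS11* (YLR136C) had -1.57, -1.29, -0.97 and -1.26. Both were below 0 on every array. Replicate 2 was the lower for *FIT3* and replicate 1 for *TIS11*, each by a narrow gap between the nearest arrays, and the means were -1.28 ± 0.25 and -1.27 ± 0.22 (SD, n = 2). In limma, which tested the replicate means against 0 with a spread shared between *ptc6* and *ptc1 ptc6*, an adjusted p under 0.05 was reached by 0 of 4824 ORFs (0%). *FIT3* came nearest, with an adjusted p of 0.161, and 386 ORFs had an unadjusted p under 0.05. The deleted *PTC6* itself had an adjusted p of 0.407 in this fit, so the count of 0 does not show that no ORF differs. Its replicates lay at -2.27 and -2.42 in *ptc6* but at -3.16 and -4.73 in *ptc1 ptc6*, and the shared spread holds both gaps. With the *ptc6* replicates fitted alone, the adjusted p of *PTC6* was 1.33e-08 in limma. In 4 of 8 alternative fits 4 to 10 ORFs passed, with *FIT3*, *TIS11*, *ARO9* and *ARO10* in each of those 4, and in the other 4 fits 0 passed. The adjusted p of *FIT3* ranged from 0.000131, with the *ptc6* replicates fitted alone, to 0.69, without replicate 1.

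The agreement between the replicates was low across all ORFs. The replicate means correlated with Pearson r = 0.12 and Spearman rho = 0.085 over 4824 ORFs, a description over ORFs that share their arrays and normalization and are not independent. The 2 arrays of replicate 1 gave r = 0.31 over 4258 ORFs and those of replicate 2 gave r = 0.41 over 5322. Across replicates the values were -0.02 for experiments 1 and 5 (both Cy3), 0.21 for experiments 2 and 6 (both Cy5), 0.03 for experiments 1 and 6 and 0.12 for experiments 2 and 5. Experiment 1 therefore stood nearest to 0 against both arrays of replicate 2. Over the 4148 ORFs with 4 arrays, the contrast of mutant over wt had an SD of 0.17, the contrast between replicates 0.15, the dye contrast 0.11 and the product of the last pair 0.11. The contrast between replicates was thus nearly as wide as that of mutant over wt. The latter also holds the spread of replicates and arrays, so its SD does not measure an effect common to the replicates.

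Far from 0, a shared sign was most common among ORFs that were low in replicate 1. In replicate 1, 170 ORFs had a mean of at least 0.5, and 106 of them were above 0 in replicate 2, where their median was 0.06 and 2858 of all 4824 ORFs were above 0. Another 164 had at most -0.5, and 111 of them were below 0 in replicate 2, with a median of -0.09, beside 1961 of all 4824 ORFs. Of the 28 ORFs at or above 0.5 in replicate 2, 12 were above 0 in replicate 1, and of the 57 at or below -0.5 in replicate 2, 26 were below 0 in replicate 1, where 2347 of all 4824 ORFs were above and 2472 below 0. Past 0.5 in both replicates there were 4 ORFs on the higher side and 12 on the lower side, while 6 were higher in replicate 1 and lower in replicate 2 (YMR315W, *RTS3*, *STF2*, *RGI1*, *ANS1* and YIL012W), and 2 the reverse (*ADE13* and *ADE17*). *RGI1* and *ANS1* rested on experiment 1 alone in replicate 1, and YIL012W on experiment 5 alone in replicate 2.

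**Figure D1:**
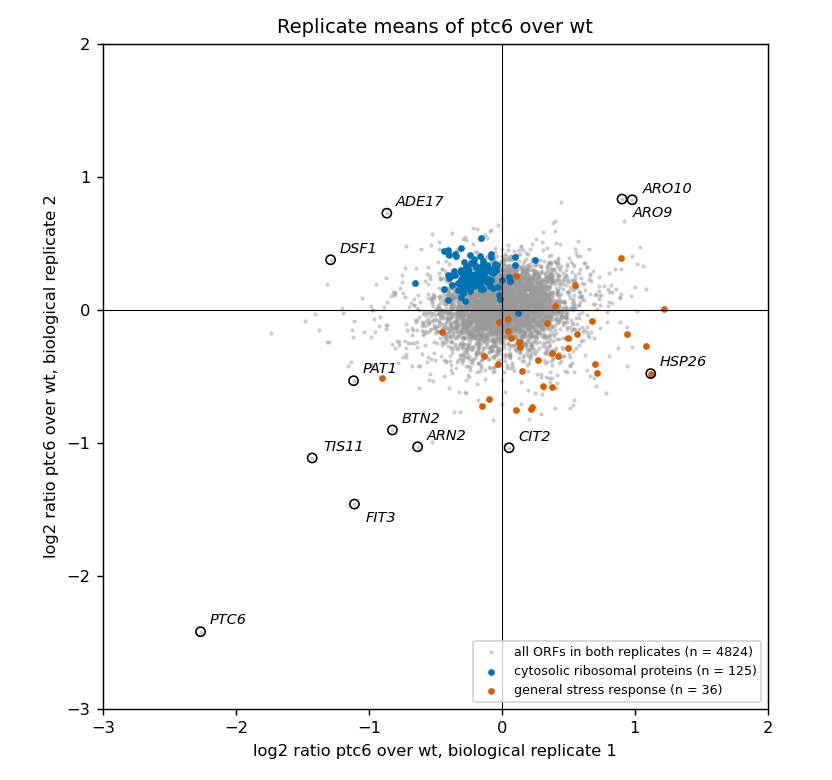
Mean log2 ratio of *ptc6* over wt in biological replicate 1 (x axis) and replicate 2 (y axis) for the 4824 ORFs measured in both, with cytosolic ribosomal protein genes in blue, general stress genes in orange and selected ORFs circled and named. *PTC6*, *FIT3* and *TIS11* lie low in both replicates and *ARO9* and *ARO10* high in both, whereas most ribosomal protein genes lie to the upper left and most stress genes to the lower right.

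The 4 ORFs at or above 0.5 in both replicates were *ARO10*, *ARO9*, *SRO9* and YDR509W. *ARO9* and *ARO10* encode the aromatic aminotransferase and the decarboxylase that start the breakdown of aromatic amino acids to fusel alcohols, and both are switched on by the activator Aro80. *ARO10* (YDR380W) had 1.07, 0.89, 0.77 and 0.89, and *ARO9* (YHR137W) had 0.91, 0.90, 0.79 and 0.88. All 8 values lay between 0.77 and 1.07, and the replicate means differed by 0.15 and 0.07. The means were 0.90 ± 0.11 and 0.87 ± 0.05 (SD, n = 2), which are 1.87-fold and 1.83-fold over wt. In limma the adjusted p was 0.411 for *ARO10* and 0.407 for *ARO9*, with a range from 0.00154 in a fit of the 4 arrays with a replicate block to 0.69 without replicate 1, and both passed in 4 of the alternative fits. Among those fits, the replicate block had a correlation of 0.0555 with the 4 arrays and -0.0863 with all 8 arrays. The dye-swapped arrays of a replicate thus did not count as 1 measurement there. *ARO80* itself had no value on any of the 4 arrays. *SRO9*, which encodes an RNA-binding protein that associates with translating ribosomes, had 0.34, 0.81, 0.45 and 0.60, with overlapping replicates. YDR509W had a value in 1 array of each replicate only, 0.92 and 0.67, both with the mutant in Cy3.

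The 12 ORFs at or below -0.5 in both replicates were *PTC6*, *FIT3*, *TIS11*, *ARN2*, *BTN2*, *PAT1*, *YRO2*, *SSA4*, *MGA1*, *BSC1*, YCL021W-A and YJL114W. For *PTC6*, *SSA4*, *MGA1*, *BSC1*, YCL021W-A and YJL114W, replicate 1 rested on experiment 1 alone. *BSC1* had a value in 1 array of each replicate only, -0.525 and -0.997. *BTN2* (YGR142W), whose product sorts misfolded proteins into deposits, had -0.64, -1.01, -1.06 and -0.74, and each replicate held 1 of the lower values. Its mean was -0.86 ± 0.06 (SD, n = 2; adjusted p = 0.602 in limma, from 0.00412 to 0.69 over the alternatives). *YRO2* (YBR054W), which encodes a membrane protein, had -0.46, -0.79, -0.78 and -0.40. *SSA4*, an inducible cytosolic Hsp70, had -0.90 in experiment 1 and -0.45 and -0.58 in experiments 5 and 6, again below 0 wherever it was measured. *ARN2* (YHL047C), a siderophore transporter gene, had -0.60, -0.67, -0.88 and -1.18.

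*PAT1* (YCR077C), which encodes an mRNA decay factor, had -1.29, -0.94, -0.42 and -0.64. Every array was below 0, replicate 1 lay lower than replicate 2 with no overlap, and the mean was -0.82 ± 0.41 (SD, n = 2; adjusted p = 0.602 in limma, from 0.0113 to 0.69 over the alternatives). In the gene table *PAT1* lies next to *PTC6*, on the other strand by its systematic name, and whether the kanMX4 replacement touches it was not tested. Of the further neighbours on that side, *FUB1* had 0.38, 0.46, 0.20 and 0.27, above 0 on each array, and *ERS1* had -0.03, -0.01 and 0.02 on 3 arrays. On the other side *SRB8* was measured in replicate 2 only, at 0.21 and -0.05, and *AHC2* had 0.52, -0.31, -0.07 and 0.05. *PAT1* was also below wt in *ptc1 ptc6* cells, at -0.90 in the mean, and its difference between the mutants did not pass (adjusted p = 0.859 in limma).

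Among ORFs with the same sign on 4 of 4 arrays, of which 571 (13.8% of 4148) were above 0 and 296 (7.14%) below, the 10 farthest from 0 in each direction are given next. The lowest 10 were, from the lowest, *FIT3*, *TIS11*, *BTN2*, *ARN2*, *PAT1*, *SFC1*, *PAU24*, *PAU14*, *YRO2* and *ARN1*. *SFC1*, the mitochondrial exchanger of succinate and fumarate, had -1.31, -0.96, -0.20 and -0.59, so that its mean of -0.76 ± 0.52 (SD, n = 2) came mainly from replicate 1. The siderophore transporter gene *ARN1* showed the opposite order, with -0.40 and -0.31 in replicate 1 and -0.75 and -0.78 in replicate 2.

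On the higher side the 10 were *ARO10*, *ARO9*, *LYS1*, *LYS20*, *SOD2*, *CAR1*, *MDH1*, *LYS21*, *LSM3* and *SRO9*. *SOD2*, the superoxide dismutase of the mitochondrial matrix, had 0.66, 1.14, 0.41 and 0.37. *CAR1*, the arginase that opens arginine breakdown, had 0.65, 1.15, 0.17 and 0.43. *MDH1*, the mitochondrial malate dehydrogenase, had 0.81, 1.19, 0.02 and 0.33. In these 3 genes both arrays of replicate 1 lay above both arrays of replicate 2, and experiment 2 was the highest array. *LSM3*, a subunit of the Sm-like complex that takes part in splicing and mRNA decay, was more even, with 0.51, 0.80, 0.37 and 0.54. The lysine synthesis genes *LYS1*, *LYS20* and *LYS21* had means of 0.75 ± 0.40, 0.69 ± 0.52 and 0.58 ± 0.39 (SD, n = 2), also with replicate 1 above replicate 2. The adjusted p of each of these ORFs other than *ARO9* and *ARO10* was 0.602 in limma.

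**Figure D2:**
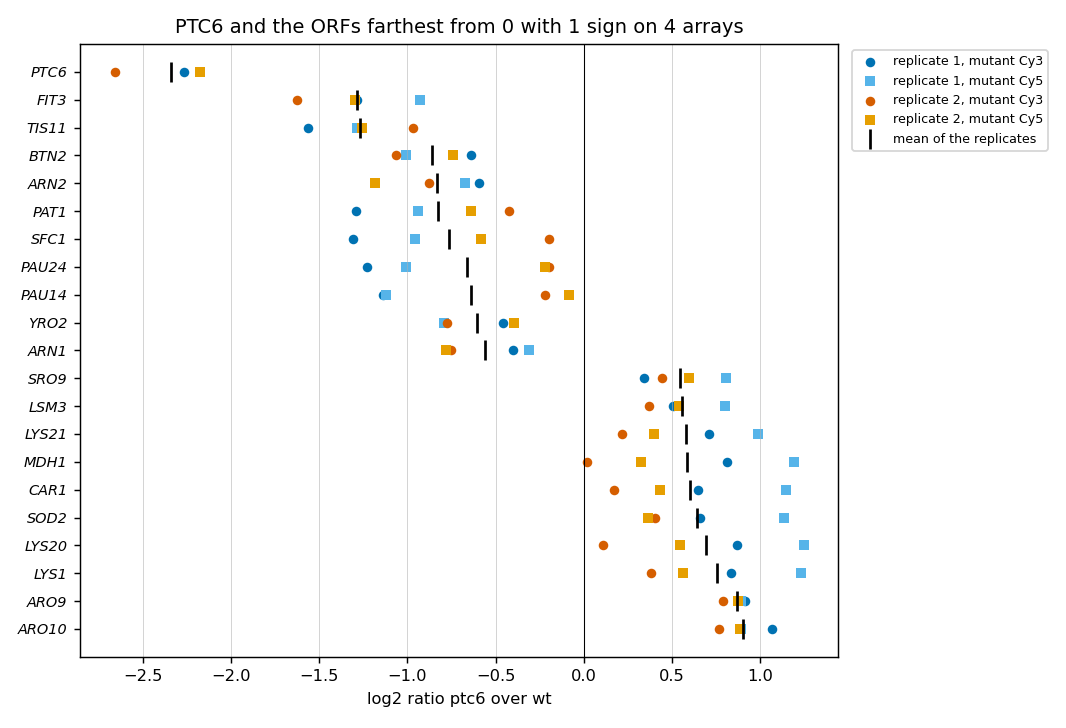
Log2 ratios of *ptc6* over wt on each array (x axis) for *PTC6* and for the 10 lowest and 10 highest ORFs with the same sign on 4 of 4 arrays, with blue for replicate 1, orange for replicate 2, circles for the mutant in Cy3, squares for the mutant in Cy5 and a bar for the mean of the replicates. *ARO9* and *ARO10* show 4 close points, whereas *MDH1*, *LYS20*, *SFC1*, *PAU24* and *PAU14* lie farther from 0 in replicate 1 than in replicate 2.

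The gene lists divided into those with 1 sign in both replicates and those whose sign turned. A list is described by the number of its members above or below 0 in both replicate means, to be read against all 4824 ORFs, of which 1458 (30.2%) were above and 1075 (22.3%) below 0 in both, and 2119 were higher and 2705 lower in replicate 1 than in replicate 2. The highest and lowest members are those by the mean over 4 of 4 arrays, and lists were not tested against each other. Of the nuclear genes of the respiratory chain and ATP synthase, 24 of 30 (80.0%) were above 0 in both replicates and 1 was below. The median of this list was 0.41, 0.45, 0.20 and 0.10 in experiments 1, 2, 5 and 6. *ATP16*, the delta subunit of the F1 sector of ATP synthase, was the highest with 4 arrays, at 0.45, 0.66, 0.37 and 0.48. *ATP17*, a subunit of the membrane sector, had 0.84, 0.63, 0.31 and -0.10, and *NDE1*, the external NADH dehydrogenase, was the lowest with -0.05, 0.40, -0.29 and -0.21. The list was thus above the median of all ORFs on each array, and higher in replicate 1, where 29 of the 30 members exceeded their value in replicate 2.

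Other mitochondrial classes were mixed. The tricarboxylic acid cycle list also held *ICL1* and the peroxisomal *CIT2*. Of its 22 enzymes 8 were above 0 in both replicates and 2 were below, with medians of 0.04 and 0.06 in replicates 1 and 2. Mitochondrial ribosomal proteins had medians of 0.14 and -0.07, with 16 of 61 above and 11 below 0 in both and 49 of 61 higher in replicate 1. Of the protein import machinery 12 of 29 were above and 2 below in both, with medians of 0.03 and 0.02. The 8 listed genes of the mitochondrial genome matched no ORF of the table. Of 16 retrograde genes, which answer to mitochondrial dysfunction, 5 were above 0 in both replicates and 2 below, with medians of 0.11 and -0.07. *ATO3*, the highest with 4 arrays, had 0.45, 0.65, 0.16 and 0.37. The lowest was *CIT2*, the peroxisomal citrate synthase that serves as their usual marker, with -0.10, 0.21, -1.07 and -1.004. *CIT2* was thus near 0 in replicate 1 and lower than wt by more than 2-fold in replicate 2. The replicates differed by 1.09 for *CIT2* (SE 0.22, adjusted p = 0.000151 in limma).

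Of the 110 ribosome biogenesis factors, which process ribosomal RNA in the nucleolus, 82 (74.5%) were above 0 in both replicates and 5 were below, with medians of 0.15, 0.10, 0.20 and 0.16 on the 4 arrays. *TIF6*, needed to make the large subunit, was highest at 0.44, 0.36, 0.44 and 0.74. *URB1* was lowest at 0.10, -0.49, 0.08 and -0.75, with the Cy5 arrays below 0 and the Cy3 arrays above. Of the proteasome subunits 22 of 34 (64.7%) were above 0 in both replicates and 2 below, with medians of 0.22 and 0.07. *PRE7*, a subunit of the catalytic core, was the highest at 0.44, 0.62, 0.26 and 0.19.

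On the lower side, 14 of 24 chaperone genes (58.3%) were below 0 in both replicates and 2 above, with medians of -0.17 and -0.16. *BTN2* was the lowest of these, and *HSP104*, the disaggregase, had -0.19, -0.12, -0.59 and -0.85. The highest chaperone, *HSP31*, had 0.19, 0.54, -0.17 and 0.31, with 1 array below 0. Of the iron regulon 18 of 24 were below 0 in both replicates and 0 above. Zinc and copper homeostasis had 9 of 18 below and 3 above. Its lowest member was the metallothionein gene *CUP1-2*, which has an identical copy, at -0.54, -0.69, -0.22 and -0.62.

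**Figure D3:**
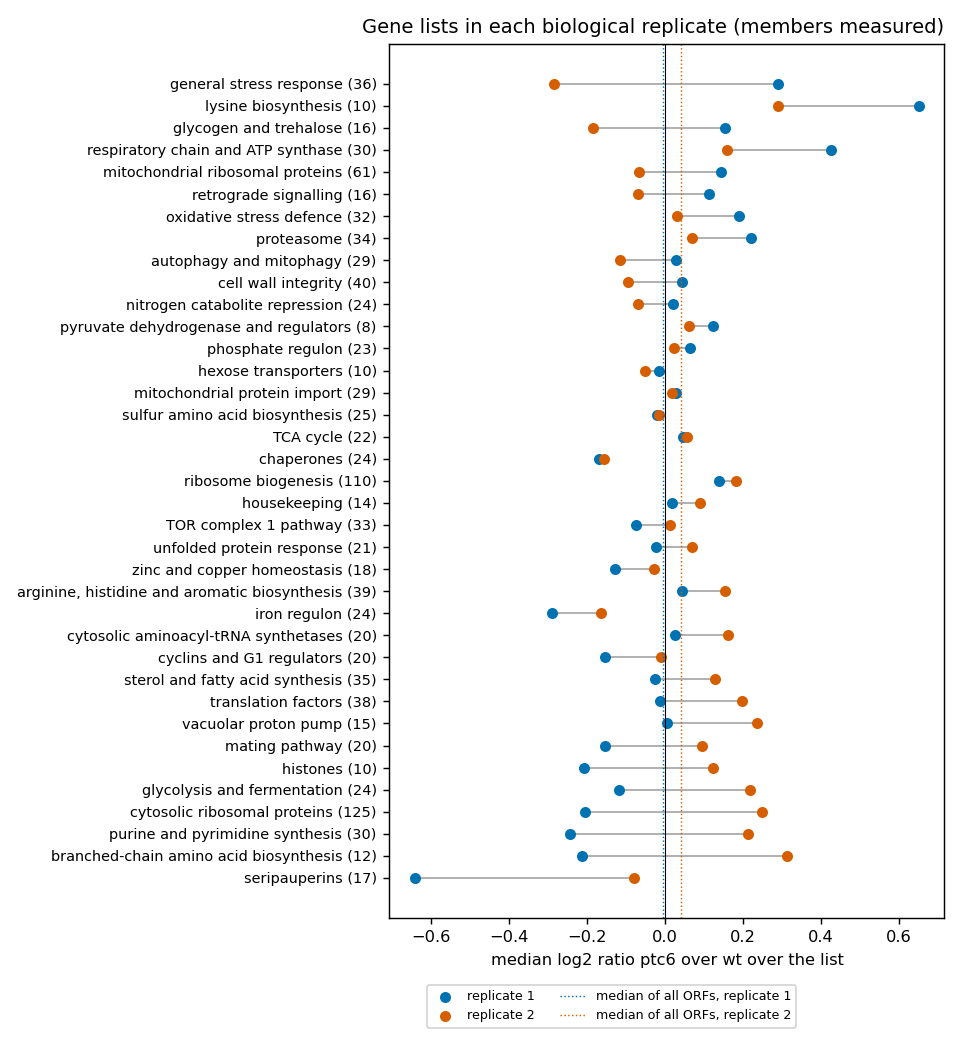
Median log2 ratio of *ptc6* over wt of each gene list in replicate 1 (blue) and replicate 2 (orange), with the number of members measured in both in brackets, the medians of all ORFs as dotted lines and lists ordered by the difference between replicates. Stress genes and reserve carbohydrates lie to the right in replicate 1, ribosomal proteins, nucleotide and branched-chain amino acid synthesis to the right in replicate 2, and ribosome biogenesis and chaperones differ little between the replicates.

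To ask which ORFs differed between the replicates by more than the arrays of 1 replicate do, a limma fit to the 4 arrays took terms for genotype, replicate and dye. It called 63 ORFs (1.52% of 4148) higher in replicate 1 and 62 (1.49%) lower in replicate 1 at an adjusted p under 0.05. The fit gave every ORF the same standard error of 0.22, so an ORF whose own arrays scatter more is not discounted. It compares the RNA pairs of 2 replicates and no condition, against the spread of dye-swapped arrays of the same RNA. On simulated data it called more ORFs without a planted difference than its adjusted p allows. Those ORFs also held a random offset per replicate, so the simulation cannot show how many calls are false. Its p-values therefore order the ORFs and do not say how separate cultures vary. As a count without a test, 745 ORFs (18.0%) had both arrays of replicate 1 above both of replicate 2, and 1101 (26.5%) had them below.

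The 5 ORFs with the largest difference in favour of replicate 1 were *HSP26*, YMR315W, *UBI4*, *RTC3* and *RTS3*. *HSP26* (YBR072W), which encodes a small chaperone of the heat shock response, had 1.33 and 0.91 in replicate 1 and -0.51 and -0.45 in replicate 2, a difference of 1.60 (SE 0.22, adjusted p = 7.34e-10 in limma). *UBI4*, the stress-induced polyubiquitin gene, had 0.93 and 0.95 against -0.34 and -0.49, and *RTC3*, a stress-induced gene, had 0.93 and 1.24 against -0.44 and -0.10. YMR315W had 0.65 and 0.92 against -0.22 and -1.03, and *RTS3* had 0.69 and 0.38 against -0.61 and -0.83. In each of the 5 the sign turned between the replicates, so that their means, from -0.09 to 0.41, lay between the replicates and near neither.

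In the other direction the 5 were *DSF1*, *ADE17*, *OAC1*, *PAU5* and *SGO1*. *DSF1*, a gene of the mannitol dehydrogenase family with a near-identical copy whose signal cannot be told apart, had -1.09 and -1.49 in replicate 1 and 0.05 and 0.71 in replicate 2. *ADE17*, an enzyme of late purine synthesis, had -0.93 and -0.80 against 0.94 and 0.51, a difference of -1.59 (SE 0.22, adjusted p = 7.34e-10 in limma). *OAC1*, a mitochondrial carrier used in leucine synthesis, had -0.67 and -0.77 against 0.60 and 0.37. *SGO1*, which guards the cohesion of sister centromeres, had -0.96 and -0.78 against 0.15 and 0.32, and *PAU5* had -1.16 and -1.24 against -0.09 and 0.05. The sign turned in *DSF1*, *ADE17*, *OAC1* and *SGO1*, whereas *PAU5* went from well below 0 to about 0.

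**Figure D4:**
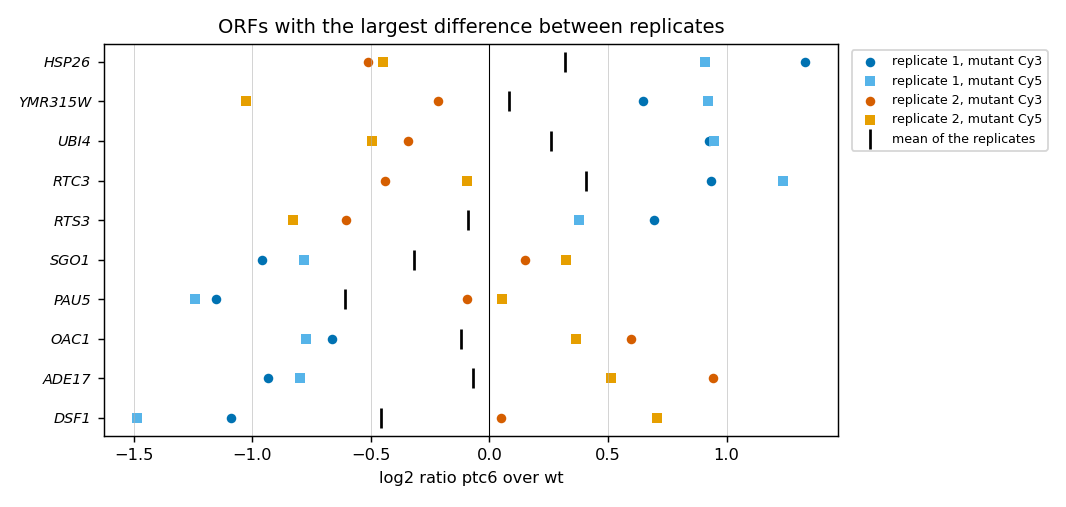
Log2 ratios of *ptc6* over wt on each array (x axis) for the 5 ORFs with the largest difference between replicates in each direction, with blue for replicate 1, orange for replicate 2, circles for the mutant in Cy3, squares for the mutant in Cy5 and a bar for the mean of the replicates. In each row both points of replicate 1 lie on 1 side of both points of replicate 2, and the arrays of a dye swap lie closest in replicate 1 of *UBI4* and farthest apart in replicate 2 of YMR315W.

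The cytosolic ribosomal proteins were the class with the most members that took opposite signs. Of 125 genes, 118 were below 0 in replicate 1 and 124 were above 0 in replicate 2, and 124 were lower in replicate 1. The medians were -0.38 and -0.03 in experiments 1 and 2, and 0.24 and 0.28 in experiments 5 and 6, so within replicate 1 the shift was carried mainly by experiment 1. Both arrays of replicate 1 lay below both of replicate 2 in 104 of the 125. The fit called 7 of them lower in replicate 1 and 0 higher. *RPL29*, of the large subunit, had -0.76 and -0.11 against 0.66 and 0.23. *RPS28A*, of the small subunit, had -0.79 and -0.52 against 0.33 and 0.08, whereas *RPS7B* was above 0 throughout at 0.14, 0.35, 0.26 and 0.49. Many of these genes are pairs of near-identical paralogs, whose spots share signal, so the members are not independent.

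Of the other lists tied to growth, ribosome biogenesis differed little between the replicates, with 67 of 110 lower in replicate 1. Its 1 call by the fit was *NOP1*, higher in replicate 1, with 0.47 and 0.78 against -0.47 and -0.21. The following lists lay lower in replicate 1 in most members. Nucleotide synthesis genes had medians of -0.24 and 0.21 in replicates 1 and 2, with 29 of 30 lower in replicate 1, and the fit called 10 of 29 lower in replicate 1 and 0 higher. *ADE13*, an enzyme of purine synthesis, had -0.52 and -0.53 against 0.67 and 0.47. Branched-chain amino acid synthesis had medians of -0.21 and 0.31, with 11 of 12 lower in replicate 1 and 5 of 12 called. By array its medians were -0.395, 0.023, 0.2775 and 0.3055 in experiments 1, 2, 5 and 6, so only experiment 1 had a median below 0. *LEU1*, which acts in leucine synthesis, had -0.98 and -0.47 against 0.32 and 0.31. Histone genes had -0.21 and 0.12, with 10 of 10 lower in replicate 1, the subunits of the vacuolar proton pump 0.00 and 0.24, with 14 of 15 lower, and translation factors -0.01 and 0.20, with 31 of 38 lower. None of these last 3 lists held a call.

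The stress genes went the other way. Of 36 measured targets of Msn2 and Msn4, 33 were higher in replicate 1, where 29 were above 0, while 31 were below 0 in replicate 2. The medians were 0.22 and 0.33 in experiments 1 and 2 and -0.37 and -0.30 in experiments 5 and 6, so both dye orientations of each replicate gave the same sign. Both arrays of replicate 1 lay above both of replicate 2 in 23 of 27 genes with 4 arrays, and the fit called 12 of these 27 higher in replicate 1 and 0 lower. *SOD2* was above 0 on all arrays, as given above. *HSP12*, a small membrane stress protein gene that serves as a common marker of this response, was an exception, with 0.19, 0.03, 0.28 and 0.23 and no difference called (adjusted p = 0.839 in limma). *HXK1*, a hexokinase gene, had 1.33 and 1.11 against 0.12 and -0.10. Reserve carbohydrate genes had medians of 0.15 and -0.18, and *PGM2*, the main phosphoglucomutase gene and also a member of the stress list, had 0.65 and 0.78 against -0.52 and -0.43. The cell wall integrity list was divided, with 22 of 40 genes higher and 18 lower in replicate 1 and medians of 0.04 and -0.09, and 5 of 36 were called higher in replicate 1 and 0 lower. *MID2*, a sensor of the pathway, had -0.42 and 0.20 against 0.50 and 0.57. Among the 5 was *SLT2*, the kinase of that pathway, with 0.50 and 0.34 against -0.61 and -0.48.

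**Figure D5:**
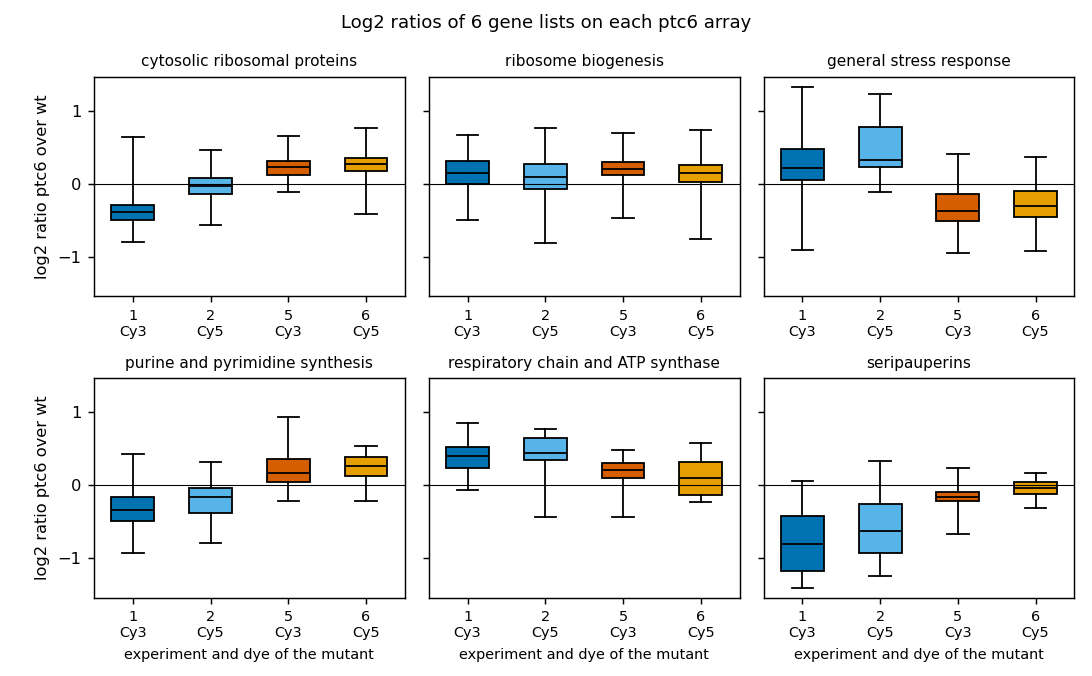
Log2 ratios of *ptc6* over wt of the members of 6 gene lists on each array, with the experiment and the dye of the mutant on the x axis. Boxes span the quartiles with the median as a line and whiskers reach the lowest and highest member. Ribosomal protein and nucleotide synthesis genes lie lower in replicate 1 (experiments 1 and 2) than in replicate 2 (experiments 5 and 6), stress genes lie higher, ribosome biogenesis genes are alike on the 4 arrays, and seripauperins are below 0 mainly in replicate 1.

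The seripauperins, a subtelomeric family of small mannoprotein-like genes that anaerobic growth induces, were low in replicate 1. Of 17 measured members 15 (88.2%) were below 0 in both replicates and 0 above, with medians of -0.80 and -0.63 in experiments 1 and 2 and -0.15 and -0.04 in experiments 5 and 6. *PAU24* had -1.23 and -1.01 against -0.20 and -0.22, and *PAU14* -1.14 and -1.12 against -0.22 and -0.09. The highest member, *PAU23*, had -0.36, 0.33, 0.09 and -0.14 and crossed 0 within each replicate. The fit called 5 of 14 lower in replicate 1. These genes are near copies of each other, so that a spot can read several of them and the members cannot be counted as separate measurements.

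Among the pathways to which Ptc6 has been tied, pyruvate dehydrogenase, autophagy and TOR complex 1 gave small list medians. The retrograde list, with *CIT2*, is given above. For the pyruvate dehydrogenase complex and its regulators 5 of 8 genes were above 0 and 3 below 0 in both replicates, with medians of 0.12 and 0.06, and 8 of 8 were higher in replicate 1. *LAT1*, the acetyltransferase core of the complex, had 0.14, 0.60, 0.24 and 0.30, and *PKP1*, a kinase that inactivates it, had 0.05, -0.25, -0.42 and -0.32. In the autophagy list 8 of 29 genes were below 0 in both replicates and 2 above, with medians of 0.03 and -0.12. *ATG32*, the receptor that marks mitochondria for mitophagy, was the lowest of the list at -0.51, -0.86, -0.41 and -0.10, a mean of -0.47 ± 0.31 (SD, n = 2; adjusted p = 0.602 in limma, from 0.181 to 0.69 over the alternatives). The TOR complex 1 list had medians of -0.08 and 0.01, with 5 of 33 above and 10 below in both.

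None of the other phosphatase genes of the family passed in limma in *ptc6*, where 0 of 4824 ORFs (0%) passed. The deleted *PTC6* did not pass either, so this result is not particular to the family and does not show that its genes are unchanged. *PTC4*, at -0.25, -0.27, -0.18 and -0.03, and *PTC5*, at -0.04, -0.21, -0.18 and -0.09, were below 0 on 4 arrays, and *PTC2*, at 0.03, 0.08, 0.09 and 0.21, was above 0 on 4. *PTC1* had 0.41, -0.13 and 0.20 on the 3 arrays with a value. *PTC3* had 0.38, 0.19, -0.07 and 0.33, and *PTC7* had 0.21, 0.05, -0.01 and 0.32, each with experiment 5 just below 0. Their adjusted p in limma lay between 0.636, for *PTC3*, and 0.811, for *PTC2*.

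Glycolysis and fermentation could not be read in replicate 2, because many of its most abundant transcripts carried 1 shared value there. On experiment 5, 24 ORFs had a ratio of 0.653 or 0.654, and 20 of these also had -0.038 or -0.037 on experiment 6. On experiments 1 and 2 the same 20 ORFs differed, from -0.71 to -0.16 and from -0.20 to 0.57. Among the 20 were 10 of the 24 glycolysis genes measured in both replicates (*CDC19*, *PGK1*, *TDH1*, *TDH2*, *TDH3*, *ENO1*, *ENO2*, *FBA1*, *PDC1* and *ADH1*), the elongation factor genes *TEF1* and *TEF2*, the cell wall gene *CCW12* and 7 ORFs without a symbol, and the other 4 of the 24 were *RPL10*, *RPL15A*, *SSB2* and *GIM3*. Ratios this close cannot order these ORFs, and whether their spots were saturated was not tested, since no intensity was used. With them the glycolysis list had medians of -0.12 and 0.22 in replicates 1 and 2, and without them 0.00 and 0.01. *CDC19*, the pyruvate kinase, and *ENO2*, an enolase, were called lower in replicate 1 by the fit, and both calls rest on the shared value. *HXK1* and *GLK1*, which phosphorylate glucose, do not carry it and were called higher in replicate 1, *GLK1* with 0.73 and 1.16 against -0.28 and -0.09. Ribosomal proteins held 2 such ORFs, and their medians without them were -0.21 and 0.25.

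Of the remaining lists, lysine synthesis had 8 of 10 genes above 0 in both replicates and 1 below, with medians of 0.65 and 0.29. Cytosolic aminoacyl-tRNA synthetases, which charge tRNAs, had 12 of 20 above and 1 below, with medians of 0.02 and 0.16. In the sulfur amino acid pathway 8 of 25 were below and 4 above, with both medians at -0.02, and the lowest by the mean was *MUP3*, a methionine permease gene, at -0.68, -0.86, -0.21 and -0.32. Of the arginine, histidine and aromatic synthesis genes 18 of 39 were above 0 in both replicates and 3 below, with medians of 0.04 and 0.15. Oxidative stress defence had 15 of 32 above and 7 below, the phosphate regulon 8 of 23 and 3, and nitrogen catabolite repression 6 of 24 and 8. Hexose transporters had 2 of 10 above and 3 below, and housekeeping genes 6 of 14 and 2.

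Dye effects that the swap cancels were called for 4 ORFs in the same fit, *RTS2*, *TAF1*, *SMC6* and *RPL41A*. *RTS2* (YOR077W) had -2.71 in experiment 1 and 2.65 in experiment 2, and -1.05 in experiment 5 and 1.20 in experiment 6, and its mean over the replicates was 0.02 ± 0.08 (SD, n = 2). Single arrays of this ORF passed 2-fold in each direction while the mean was near 0. Medians by chromosome were between -0.08 and 0.10 in replicate 1 and between 0.01 and 0.09 in replicate 2, so no chromosome stood apart in its median.

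In *ptc1 ptc6* cells *FIT3*, *TIS11* and *ARN2*, all below wt in *ptc6*, lay above wt, whereas *PTC6* at -3.94 and *PAT1* stayed below. *FIT3* had 2.35 and *TIS11* 1.10 in the mean of the double mutant, against -1.28 and -1.27 in *ptc6*, differences of 3.63 and 2.37 (adjusted p = 0.00201 and 0.0136 in limma). *ARN2* had 1.58 against -0.83 (adjusted p = 0.0147). *HSP12*, near wt in *ptc6*, had 3.63 (adjusted p of the difference = 0.00469). *ARO9* and *ARO10* had 0.58 and 0.66 in *ptc1 ptc6*, and their differences between the mutants did not pass (adjusted p = 0.343 and 0.459). The sets of arrays were hybridised apart, and whether they share wt RNA is not stated, so a difference between sets and a difference between mutants cannot be told apart.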

How the data were processed

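The deposited values were log2 ratios per ORF and array, made by the authors from GenePix scans of 2-colour arrays after leaving out small and dim spots, with the GEPAS software. The normalization within arrays and the log base are not given in the sources used here, and base 2 was taken from the 2-fold rule of the methods. The ratios had already been turned to mutant over wt. No intensity was used, so no spot could be judged against background, and the number of arrays limits the precision.

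Symbols came from the gene table of assembly R64 by systematic name (5662 of 6212 matched). Because both arrays of a dye swap hold the same RNA, their mean was 1 replicate, giving n = 2. Whether each replicate had a separate wt culture is not stated, and the p-values measure only the spread between these samples. In R 4.3.3, limma 3.58.1 was run two-sided on the replicate means of both mutants, with Benjamini-Hochberg adjustment over 4824 ORFs. The replicate comparison used the 4 *ptc6* arrays. The limma fits were tested on simulated data, where the replicate comparison called more ORFs without a planted difference than its adjusted p allows. Each simulated ORF also held a random offset per replicate, so these calls cannot be counted as false.

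Named are the *PTC* genes, ORFs past 2-fold, the 10 highest and 10 lowest with the same sign on 4 arrays, the 5 with the largest replicate difference in each direction, the auxotrophic markers, up to 4 extremes per list, and any count of 5 or fewer. *ARO80*, *RTS2*, *GLK1*, the ORFs with a shared value, the 12 ORFs low in both replicates and members shown for their role were chosen after their values were seen. The members and the 43 gene lists were chosen with earlier results of these data known. The alternatives were a stricter array minimum, single dyes, centring, scaling, a replicate block, *ptc6* alone and leaving out a replicate.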

Additional observations from a re-analysis of the deposited data

Results flagged for a closer look

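In 169 groups of 4 values, the ORF counts per array and the named ORFs measured on 4 of 4 *ptc6* arrays were examined for a single array that lay apart. Such an array was found for 4 ORFs, where chance gives about 8.45. *DED1*, a translation initiation helicase gene, had -0.611 in experiment 1 against -0.16 to -0.09 on the others. *TRX1*, a thioredoxin gene, had -0.574 in experiment 1 against 0.126 to 0.23. *SAM3*, an S-adenosylmethionine permease gene, had 0.061 in experiment 1 against 0.366 to 0.402. *HXT4*, a hexose transporter gene, had -0.583 in experiment 2 against 0.051 to 0.148. All 4 lie in replicate 1.

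For 5 named ORFs the difference between *ptc1 ptc6* and *ptc6* passed the threshold in limma. It was 3.63 for *FIT3*, 2.41 for *ARN2*, 2.37 for *TIS11* and 3.45 for *HSP12*, all higher in *ptc1 ptc6*. It was -2.78 for *PTC1*, which is deleted in the double mutant.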

How the results depend on the processing

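The count of ORFs past 2-fold was 3 and lay between 2 and 4 under stricter array minimums, centring, scaling, single dyes and a threshold on each replicate. Leaving out a replicate, with 1 array enough, gave 8 to 32, so single replicates pass many ORFs that the mean does not. In limma 0 ORFs passed in *ptc6*. The count was 4 with 4 of 4 arrays required, 10 with the *ptc6* replicates fitted alone, 8 with the 4 arrays and a replicate block and 8 with all 8 arrays and a replicate block, and 0 (range 0 to 0) without either replicate, after centring and after scaling. The block correlation was 0.0555 with 4 arrays and -0.0863 with 8, so in those fits the dye-swapped arrays of a replicate did not count as 1 measurement. The cause of the changes in these counts was not tested. The sources do not say that experiment numbers shared between the groups mark a shared culture, so no pairing between groups was used. The correlation of the replicates was 0.12, fell below 0 with the mutant in Cy3 only (-0.0215), was 0.21 with the mutant in Cy5 only and was 0.15 without ribosomal protein, ribosome biogenesis and stress genes, and 0.12 without the 24 ORFs that share a value on experiment 5 (also added after the data were seen). The count of ORFs that differ between replicates was 125 and ranged from 92 to 134, and a robust prior, added after the data were seen, gave 125. The difference between the mutants was called for 9 ORFs, for 12 after centring and for 799 with all 8 arrays and a replicate block. In this last fit too, the dye-swapped arrays of a replicate did not count as 1 measurement. Of 84 list medians, 14 changed sign with the mutant in Cy3 only and 11 with Cy5 only. Among those of at least 0.1 in size these were 1 and 3, which included glycolysis in both replicates and branched-chain amino acid synthesis in replicate 1.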
